A study of Mus musculus with 2 samples.

Results

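The 8 genes described here are the receptors and 1 ligand of the colony-stimulating factor system of myeloid cells: *Csf1r*, *Csf1*, *Csf2ra*, *Csf2rb*, *Csf2rb2*, *Csf3r*, *Flt3* and *Kit*. They were taken by name, 8 of the 32285 genes in each of the tables, and are followed over every class of immune cell in both libraries. The question they address is which growth factor receptor RNAs were carried by the resident and by the recruited cells of the injured neonatal heart. It is also asked whether this differed when *Lyve1* was lost. Receptor protein was not measured in these data.

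The data are single-cell RNA sequencing (scRNA-seq) of leukocytes from WT and *Lyve1* KO hearts. The mice were given a myocardial infarction (MI) on day 2 after birth, and hearts were collected 7 days later, at an age of 9 days. Both groups thus share the injury, and no uninjured heart is part of these data. Live CD45+ leukocytes (negative for the dead-cell stain 7-AAD) of 5 WT hearts made 1 library and those of 5 KO hearts the other, with the 10x Genomics GEM-X 5′ v3 chemistry. *Lyve1* encodes a hyaluronan receptor of lymphatic endothelium and of resident macrophages. The mutant is a germline line, so the gene is missing from all cells and not from macrophages alone, and the background strain of the WT hearts of this experiment is not given in the sources used here.

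Colony-stimulating factors are secreted proteins that keep myeloid cells alive and drive their growth. CSF1R, a receptor tyrosine kinase, is the receptor on which macrophages depend, and it binds CSF1 and IL-34. KIT and FLT3 are kinases of the same family. KIT binds stem cell factor (*Kitl*) and supports mast cells and innate lymphoid cells, and FLT3 binds the FLT3 ligand (*Flt3l*) and supports dendritic cells. The GM-CSF receptor pairs a specific alpha chain (*Csf2ra*) with the common beta chain (*Csf2rb*), which the receptors of IL-3 and IL-5 share, and the mouse has a second beta chain (*Csf2rb2*) that serves IL-3. CSF3R is the receptor of G-CSF, the factor that drives neutrophil production. GM-CSF and G-CSF are known as factors of recruited, inflammatory cells, and CSF1 as the factor of resident macrophages.

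The beta chain genes are shown first, since they are near-identical copies and reads from one can be hard to place. *Csf2rb* lies at chr15:78325752-78353847 on the plus strand and *Csf2rb2* at chr15:78282507-78305721 on the minus strand (GRCm38), 20030 bases apart. Their coding sequences (2691 and 2637 bases) were 95.3% identical over 2631 aligned positions, and the longest identical run was 242 bases. A 5′ library is read from the 5′ end of the RNA, whose untranslated bases before the coding sequence are not shown here. The first 90 coding bases of both, taken from the GRCm38 reference, differ at 3 positions, which are in capitals.
Csf2rb: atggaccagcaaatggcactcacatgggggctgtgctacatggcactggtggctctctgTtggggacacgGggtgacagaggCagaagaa
Csf2rb2: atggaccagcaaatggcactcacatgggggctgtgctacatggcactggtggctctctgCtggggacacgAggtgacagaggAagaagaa
Of the 2602 windows of 90 bases in the coding sequence of *Csf2rb*, 327 (12.6%) were also found in *Csf2rb2*. How the counting placed reads of such windows is not given, so the split between both beta chains is uncertain. The windows cover the whole coding sequence evenly, which reads of a 5′ library do not. Their share therefore does not measure how uncertain the split is.

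Unique molecular identifiers (UMIs), each marking 1 captured RNA molecule, totalled 67968938 in the WT and 61555917 in the KO table. After limits on genes and mitochondrial UMIs and removal of likely doublets, 4187 WT and 3391 KO cells were kept. They were clustered and named from marker lists, with the 8 genes left out of the features used for clustering. Clusters without a name are called by their leading genes. Levels are given as CPM, the UMIs of a gene relative to all UMIs of the same cells on the usual counts-per-million scale, with 95% exact Poisson intervals in parentheses. With 1 library per genotype there is no replicate and no test between genotypes, and the intervals hold counting error but not differences between hearts. Among CCR2- macrophage-like cells the targeted gene, *Lyve1*, had 515 CPM (506–524) in WT against 21.2 CPM (18.6–24.0) in KO. These cells were 26.4% of kept WT and 14.4% of kept KO cells. The tables share 9 cell barcodes, 3 of them among kept cells. A group of low-depth clusters without a name held 832 WT and 555 KO cells and is in no class.

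**Figure D1:**
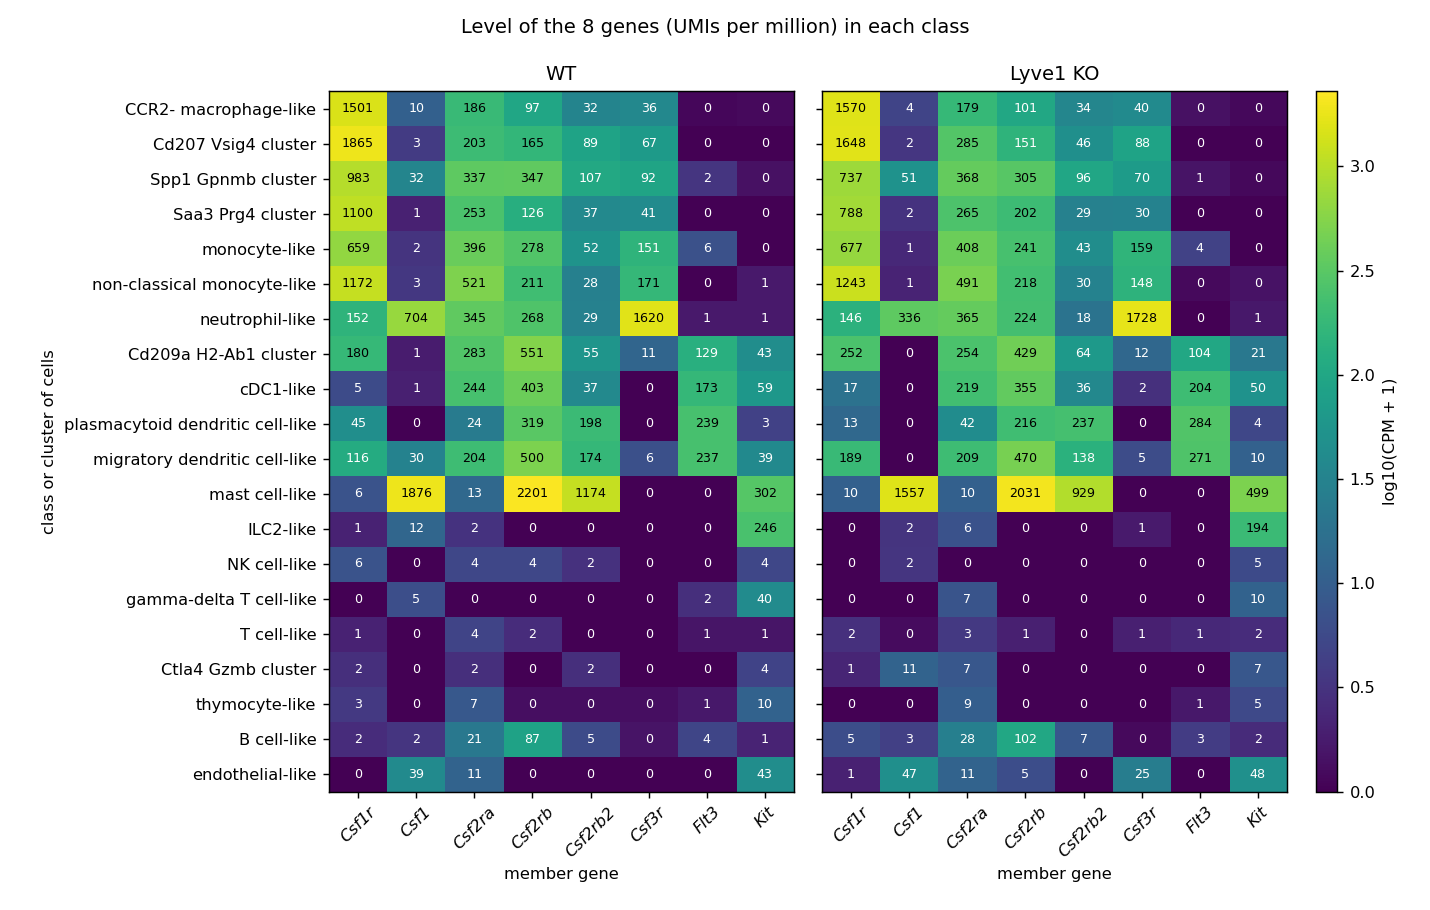
Level of each of the 8 genes (columns) in each class or cluster of cells (rows), with the WT library on the left and the Lyve1 KO library on the right. The number in each tile is CPM and the colour is log10(CPM + 1). Csf1r is bright in macrophages and monocytes, Csf3r in neutrophil-like cells, both beta chains in the mast cell-like cluster, Flt3 in dendritic cells and Kit in mast cell-like and ILC2-like cells, with the same layout in both libraries.

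Among classes and clusters each taken whole, *Csf1r*, the macrophage receptor, was highest in the *Cd207* *Vsig4* cluster. It was at 1865 CPM (1793–1938) in 69 WT cells and 1648 CPM (1526–1777) in 18 KO cells there. A cluster within the CCR2- macrophage-like class, given in the next paragraph, had higher values in both libraries. In CCR2- macrophage-like cells as a whole, the largest named class over both libraries, *Csf1r* was 1501 CPM (1486–1517) in WT against 1570 CPM (1547–1593) in KO. Of these cells 96.4% in WT and 94.8% in KO had a *Csf1r* UMI when each cell was thinned at random to 3600 UMIs. *Csf1r* RNA was thus found in nearly all CCR2- macrophage-like cells of both libraries and at levels within a fold of 1.05 (1.03–1.06) of each other.

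Among the CCR2- macrophage-like clusters, *Csf1r* was highest in the one led by *Ccl8* and *Folr2*, at 1879 CPM in WT against 1903 CPM in KO. The largest cluster, led by *Olfml3* and *Gpr34*, had 1543 and 1547 CPM. The clusters led by genes of cell division were lower, with 1289 and 1182 CPM in the one led by *Cenpf* and 1131 and 1205 CPM in the one led by *Hist1h2ae*. The lowest values, 599 and 551 CPM, were in a cluster led by *Gm26917* and *Plxna4* whose median was 5490 UMIs per cell. The cluster led by *Gdf15* and *Cd83* had 1493 and 1648 CPM, and a small one led by *Trim69* 1505 and 1525 CPM. The *Ccl8* cluster was first and the *Gm26917* cluster last in both libraries, while several clusters between them changed places.

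Monocytes, neutrophils and the *Saa3* and *Spp1* clusters of macrophages carried less *Csf1r* than CCR2- macrophage-like cells, in an order that was the same in both libraries. Non-classical monocyte-like cells, the patrolling monocytes of the vessel wall, had 1172 CPM (1132–1213) in WT against 1243 CPM (1209–1277) in KO. The *Saa3* *Prg4* cluster had 1100 CPM (1062–1140) in WT against 788 CPM (756–821) in KO, and the *Spp1* *Gpnmb* cluster 983 CPM (955–1011) and 737 CPM (716–760). Both clusters of macrophages were lower in KO, by a fold of 0.716 (0.678–0.756) and 0.750 (0.720–0.782), and their intervals overlapped in KO. The direction in the *Saa3* *Prg4* cluster turned between cells of different hearts, with a log2 ratio of -0.72 in cells with Y-linked UMIs and 0.41 in cells with *Xist* UMIs. Beside this, the 10 macrophage markers summed to 24897 CPM in WT against 16141 CPM in KO in the *Saa3* *Prg4* cluster. In the *Spp1* *Gpnmb* cluster they summed to 18113 and 14513 CPM. The 10 markers of CCR2+ macrophages went the other way, with 6691 and 7470 CPM in the former and 18955 and 19402 CPM in the latter. The part of these markers in the *Csf1r* ratios was not tested. Monocyte-like cells, led by *Ly6c2* and *S100a8*, had 659 CPM (638–681) and 677 CPM (657–698) of *Csf1r*. Neutrophil-like cells were far lower, at 152 CPM (138–167) and 146 CPM (132–160), yet 41.0% of them in WT and 41.3% in KO had a UMI at 3600 UMIs per cell. The share in T cell-like cells, which should lack the gene, was 0 of 133 cells in WT (which allows up to 2.74% by the exact interval) and 0.339% in KO (median depth 8268.5 and 12414 UMIs, against 7656 and 7961.5 in neutrophil-like cells). The share in neutrophil-like cells was therefore far above that background. The low-depth clusters without a name had 925 CPM (875–976) and 649 CPM (593–709).

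Over all kept cells, *Csf1r* was 889 CPM (881–896) in WT against 633 CPM (626–639) in KO, while the KO value was the higher one within CCR2- macrophage-like cells. The class held 65.7% of the *Csf1r* UMIs in WT and 49.8% in KO. The lower total went with the smaller share of these cells in the KO library. Levels within other classes also differed between the libraries, as given above, and the part of each in the total was not tested.

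*Csf1*, the ligand of CSF1R, was found mainly outside the macrophages richest in the receptor. Neutrophil-like cells, which also carried the low level of *Csf1r* given above, held 64.6% of its UMIs in WT and 56.7% in KO. The small mast cell-like cluster held another 19.3% and 17.5%, in its cells with basophil genes and hardly in those with mast cell genes, as given below. The *Spp1* *Gpnmb* cluster, which carried both *Csf1* and *Csf1r*, held 5.08% and 16.5% of *Csf1* UMIs. Its *Csf1* level was 32.4 CPM (27.5–37.8) in WT against 50.7 CPM (45.1–56.8) in KO. CCR2- macrophage-like cells had little, at 9.72 CPM (8.53–11.02) in WT against 3.92 CPM (2.86–5.24) in KO, a fold of 0.403 (0.286–0.556). The most loaded WT cell alone held 38 of 241 UMIs there. Without the cell of most UMIs in each library, 203 WT and 39 KO UMIs were left. Monocyte-like cells had 2.17 and 1.46 CPM and non-classical ones 2.52 and 1.18 CPM. Endothelial-like cells, of which 25 WT and 35 KO cells passed the CD45 sort, had 39.4 and 46.7 CPM.

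In neutrophil-like cells *Csf1* was 704 CPM (674–736) in WT, from 1995 UMIs in 351 cells, and 336 CPM (316–357) in KO, from 1018 UMIs in 336 cells. The fold of KO over WT was 0.477 (0.442–0.515), a log2 ratio of -1.05 with 10 CPM added to both sides. A ratio of at least 2-fold in that measure is called past 2-fold below, for genes with at least 100 UMIs in the class. Of the 4756 genes with enough UMIs in neutrophil-like cells, 44 were past 2-fold (0.925%), and *Csf1* was the 1 of 6 members that was. The share of cells with a *Csf1* UMI was also lower in KO, at 37.8% (32.4–43.5, Clopper-Pearson) against 47.3% (41.7–53.0) at 3600 UMIs per cell.

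The neutrophil-like cells formed 3 clusters, and *Csf1* differed strongly between them. The cluster led by *Ngp* and *Camp*, genes of immature granules, had 0 UMIs in 22 WT cells (3 UMIs would be 6.14 CPM) and 5.91 CPM in 28 KO cells. The largest, led by *Asprv1* and *Stfa1*, had 470 CPM (439–502) in WT against 290 CPM (267–314) in KO. The third was led by *Acod1*, *Il1rn* and *Csf1* itself, so its high level partly describes the cluster. It had 2202 CPM (2076–2334) in 79 WT cells and 1592 CPM (1441–1755) in 41 KO cells. Taken over all their cells, both clusters that carried *Csf1* had less of it in KO. The *Acod1* cluster was 22.5% of neutrophil-like cells in WT and 12.2% in KO.

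The class value lies between these clusters and depends on their proportions. Proportions here are shares of the UMIs of the class and not of its cells. By UMIs the *Acod1* cluster was 18.2% of the class in WT and 8.42% in KO. With WT levels in the KO proportions the class would have had 511 CPM. With KO levels in the WT proportions it would have had 478 CPM, and both lie between the 704 and 336 CPM observed. Beside this, the 10 neutrophil markers summed to 122258 CPM in WT against 151490 CPM in KO, the 6 markers of cycling cells to 10.6 and 183 CPM, and the 10 markers of CCR2+ macrophages to 5667 and 4600 CPM (0 of 10 at 0 in WT, 1 of 10 in KO). Their part in the *Csf1* ratio was not tested.

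**Figure D2:**
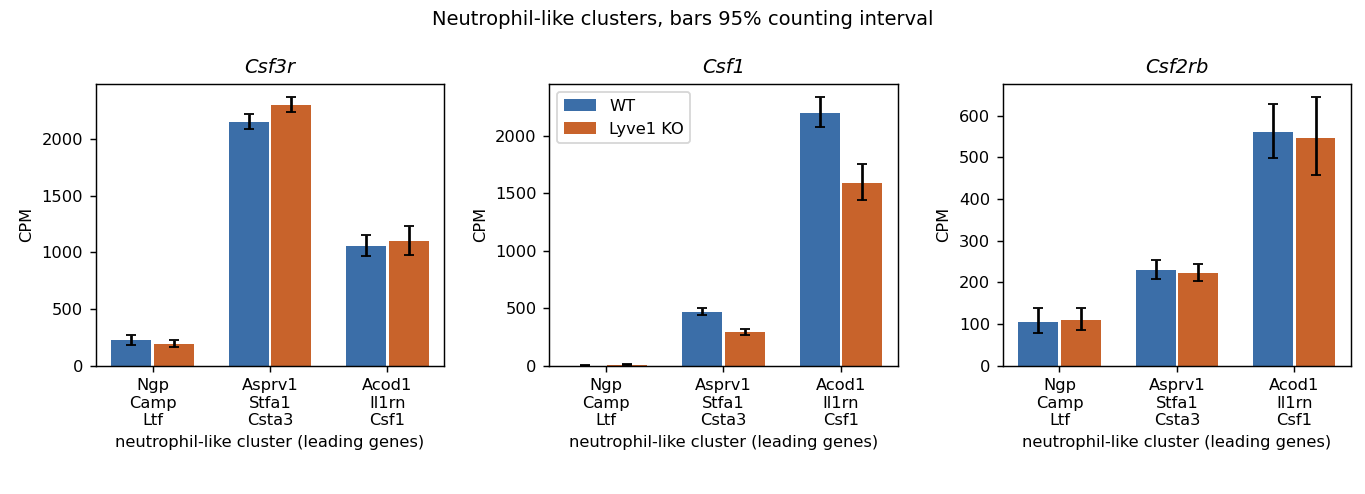
Level (CPM, linear axis from 0) of Csf3r, Csf1 and Csf2rb in the 3 neutrophil-like clusters, named by leading genes, in WT (blue) and Lyve1 KO (orange); bars are single libraries with 95% exact Poisson intervals. Csf3r peaks in the Asprv1 Stfa1 cluster, Csf1 and Csf2rb in the Acod1 Il1rn cluster, and Csf1 is lower in KO in the Asprv1 and the Acod1 cluster.

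The *Csf1* ratio had opposite signs in cells with Y-linked and in cells with *Xist* UMIs, which come from different hearts of the pools. Cells with UMIs of Y-linked genes and none of *Xist* were taken as male and the reverse as female, so these sets hold cells of different animals. In male cells *Csf1* was 839 CPM (790–890) in 148 WT against 272 CPM (242–305) in 110 KO neutrophil-like cells, a log2 ratio of -1.59. In female cells it was 431 CPM (358–514) in 26 WT against 565 CPM (495–643) in 35 KO cells, a log2 ratio of 0.38, the opposite direction. Cells with UMIs of neither had 635 CPM (591–681) in 175 WT against 324 CPM (296–354) in 189 KO cells, the direction seen in male cells. These cells can be of either sex and were more numerous than either set. The sets thus hold only cells in which such UMIs were detected. The *Ngp* *Camp* cluster, with little *Csf1*, held 5 of the 26 WT and 7 of the 35 KO female cells. It held 13 of the 148 WT and 13 of the 110 KO male cells. The part of this in the ratios was not tested. Within the *Asprv1* *Stfa1* cluster alone, female cells had 201 CPM of *Csf1* in 17 WT against 485 CPM in 22 KO cells. Male cells of that cluster had 595 and 317 CPM. The share of the *Acod1* cluster was 27.0% in WT and 12.7% in KO male cells. In female cells it was 15.4% of 26 WT and 17.1% of 35 KO cells. The female KO share rests on 6 cells, and these sets are too small to give a direction. *Csf3r* in the same sets was 1499 and 1514 CPM in male cells and 1047 and 1102 CPM in female cells. *Csf3r* thus did not show the opposite signs seen for *Csf1*. How many hearts gave each set is not known, and sex and animal cannot be told apart.

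*Csf3r*, the G-CSF receptor, was at its highest in neutrophil-like cells, with 1620 CPM (1574–1668) in WT against 1728 CPM (1682–1775) in KO, and 94.95% and 94.6% of these cells had a UMI at 3600 UMIs per cell. Within the class it rose from the *Ngp* *Camp* cluster (223 CPM in WT against 194 CPM in KO) to the *Acod1* cluster (1057 and 1098 CPM) and the *Asprv1* *Stfa1* cluster (2153 and 2300 CPM). *Csf3r* RNA was therefore lowest in the cluster with immature granule genes. Of the neutrophil-like cells, 198 of 351 in WT and 161 of 336 in KO held UMIs of both *Csf3r* and *Csf1*. Without thinning, *Csf3r* was found in 336 and 322 of these cells and *Csf1* in 206 and 164. Whether both were found together beyond these shares was not tested.

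Monocytes carried *Csf3r* beside *Csf1r*. Monocyte-like cells had 151 CPM (141–162) in WT against 159 CPM (149–170) in KO, and 216 of 240 WT and 225 of 245 KO cells held UMIs of both receptors. *Csf1r* was found in 239 and 244 of these cells and *Csf3r* in 217 and 226. Non-classical monocyte-like cells had 171 CPM (155–187) and 148 CPM (137–160). The order of these classes thus turned between the libraries, and their counting intervals overlapped in both. CCR2- macrophage-like cells had 36.1 CPM (33.8–38.6) and 39.9 CPM (36.3–43.7), with a UMI in 12.0% and 13.5% of thinned cells, against 0 of 133 and 0.339% of T cell-like cells.

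*Csf2ra*, the GM-CSF alpha chain, was found in all classes of monocytes, neutrophils, macrophages and conventional dendritic cells. Non-classical monocyte-like cells were first with 521 CPM (494–548) in WT against 491 CPM (470–512) in KO, followed by monocyte-like cells with 396 CPM (379–413) and 408 CPM (392–424). Neutrophil-like cells (345 and 365 CPM) and the *Spp1* *Gpnmb* cluster (337 and 368 CPM) were next, with overlapping intervals. CCR2- macrophage-like cells were lower, at 186 CPM (181–192) and 179 CPM (171–187). B cell-like cells had 21.3 and 27.5 CPM and T cell-like cells 3.88 and 2.67 CPM. The alpha chain was thus at a level in CCR2- macrophages well above that in lymphocytes, and below that in monocyte-like and neutrophil-like cells. At 3600 UMIs per cell 82.8% of non-classical monocyte-like cells in WT and 78.4% in KO had a *Csf2ra* UMI, against 46.2% and 43.9% of CCR2- macrophage-like cells.

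*Csf2rb*, the common beta chain, had its highest level in the mast cell-like cluster described below. Among classes of at least 20 cells in each library, the *Cd209a* *H2-Ab1* cluster, whose leading genes mark antigen-presenting cells, was first with 551 CPM (511–594) in 36 WT against 429 CPM (394–465) in 34 KO cells. cDC1-like cells, the cross-presenting dendritic cells, had 403 CPM (365–443) and 355 CPM (320–393). The *Spp1* *Gpnmb* cluster had 347 CPM (331–364) and 305 CPM (291–319), monocyte-like cells 278 and 241 CPM and neutrophil-like cells 268 and 224 CPM. CCR2- macrophage-like cells had 97.4 CPM (93.6–101) and 101 CPM (95.7–107), close to B cell-like cells with 86.7 CPM (79.4–94.4) and 102 CPM (95.7–109). These dendritic cells, monocytes and neutrophils thus held more of the beta chain than CCR2- macrophages in both libraries.

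*Csf2rb2*, the beta chain of IL-3, was lower in the same cells, with 107 CPM (97.8–116) in WT against 95.9 CPM (88.2–104) in KO in the *Spp1* *Gpnmb* cluster and 31.9 CPM (29.7–34.2) and 33.9 CPM (30.7–37.5) in CCR2- macrophage-like cells. Its share of the UMIs of both beta chains differed between classes. It was 24.6% (23.2–26.2, Clopper-Pearson) and 25.1% (22.9–27.3) in CCR2- macrophage-like cells and 23.5% and 24.0% in the *Spp1* *Gpnmb* cluster. It was lower in monocyte-like cells, at 15.7% (14.0–17.4) and 15.2% (13.5–16.9), and in neutrophil-like cells, at 9.74% (7.82–11.9) and 7.38% (5.59–9.52). B cell-like cells had 5.36% and 6.55%. In plasmacytoid dendritic cell-like cells (16 WT and 11 KO cells) the share was 38.3% (30.4–46.6) and 52.3% (42.5–62.1). The *Saa3* *Prg4* cluster had 22.5% (18.8–26.6) in WT but 12.7% (10.2–15.4) in KO. The share in CCR2- macrophage-like cells and the *Spp1* *Gpnmb* cluster was thus above that in monocyte-like and neutrophil-like cells in both libraries, which did not hold for the *Saa3* *Prg4* cluster in KO, within the limit on telling the copies apart given above. In the *Cd207* *Vsig4* cluster *Csf2rb2* was 89.5 CPM (74.4–107) in WT against 46.25 CPM (27.8–72.2) in KO, from 124 and 19 UMIs.

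The mast cell-like cluster of 29 WT and 15 KO cells had the highest levels of both beta chains and of *Csf1* of all classes: 2201 and 2031 CPM of *Csf2rb*, 1174 and 929 CPM of *Csf2rb2* and 1876 and 1557 CPM of *Csf1*. Its leading genes included mast cell genes (*Cma1*, *Tpsb2*) and basophil genes (*Mcpt8*, *Cd200r3*), so the name covers part of its cells. The cells were therefore split, after the data had been seen, by whether granule genes of mast cells (*Cma1*, *Tpsb2*, *Mcpt4*) or of basophils (*Mcpt8*, *Prss34*, *Cd200r3*) had more UMIs. The basophil side held 21 WT and 8 KO cells and the mast side 7 and 7, and 1 WT cell had 0 UMIs of either.

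*Csf1* and *Kit* fell on opposite sides of this split. All 21 WT and 8 KO cells of the basophil side had *Csf1* UMIs, at 2398 CPM (2209–2598) and 2595 CPM (2316–2898), and 0 *Kit* UMIs were found in either (the 3 genes of mast cell granules had 0 UMIs there too). All 7 WT and 7 KO cells of the mast side had *Kit* UMIs, at 1391 CPM (1124–1702) and 1242 CPM (1011–1509), while *Csf1* had 0 UMIs in WT and 1 UMI in KO. The beta chains went with *Csf1*. *Csf2rb* was 2748 and 3016 CPM on the basophil side against 237 and 566 CPM on the mast side, and *Csf2rb2* 1481 and 1397 CPM against 74.0 and 234 CPM. The *Kit* level of the whole cluster, 302 CPM in WT against 499 CPM in KO, moved with the share of mast-side cells in it, 7 of 29 in WT and 7 of 15 in KO.

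**Figure D3:**
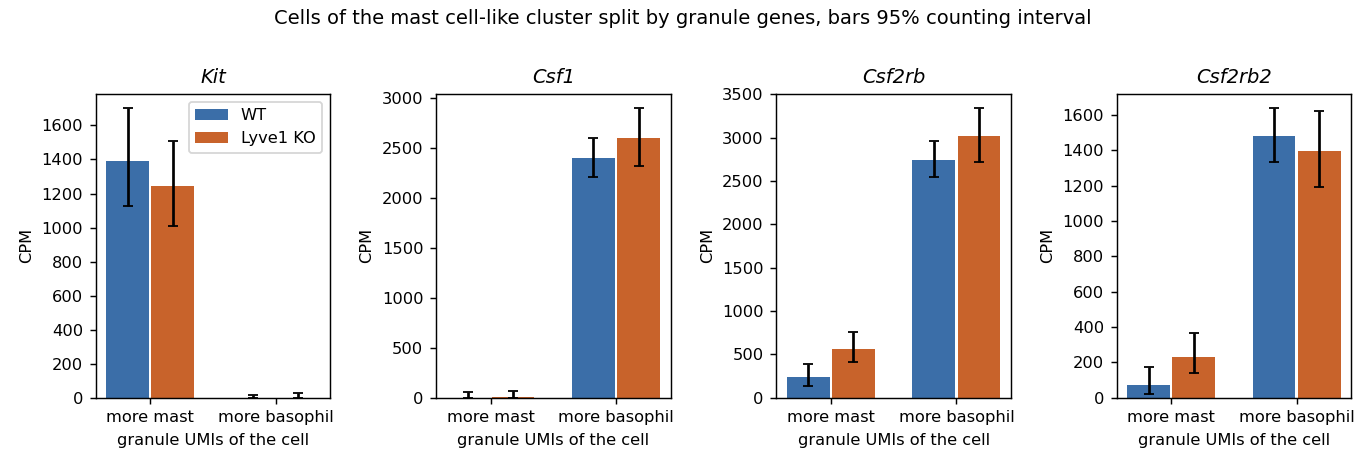
Level (CPM, linear axis from 0) of Kit, Csf1, Csf2rb and Csf2rb2 in cells of the mast cell-like cluster with more mast granule UMIs (left pair of bars, 7 WT and 7 KO cells) or more basophil granule UMIs (right pair, 21 WT and 8 KO cells), with 95% exact Poisson intervals. Kit stands on the mast side and the other genes mainly on the basophil side in both libraries.

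*Flt3*, the dendritic cell receptor, was at 173 CPM (149–201) in WT against 204 CPM (177–233) in KO in cDC1-like cells and 129 CPM (110–151) and 104 CPM (87.5–123) in the *Cd209a* *H2-Ab1* cluster. The small classes of plasmacytoid (239 and 284 CPM) and migratory (237 and 271 CPM) dendritic cell-like cells were higher, with 5 migratory cells in KO. Monocyte-like cells had 5.80 and 3.58 CPM and CCR2- macrophage-like cells 4 and 5 UMIs in all. Outside these dendritic classes and the *Cd209a* cluster, 5.80 CPM was the highest *Flt3* level of a named class in either library.

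*Kit* was highest outside mast cells in ILC2-like cells, group 2 innate lymphoid cells, with 246 CPM (216–280) in 47 WT against 194 CPM (171–220) in 55 KO cells. cDC1-like cells had 59.3 CPM (45.4–76.2) and 50.02 CPM (37.4–65.6), and 18 of 24 WT and 15 of 23 KO cells held UMIs of both *Flt3* and *Kit*. *Flt3* was found in 24 and 22 of these cells and *Kit* in 18 and 16. Macrophages, monocytes and neutrophils had at most 5 *Kit* UMIs per class and library.

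Of the 60 pairs of a member and a named class or cluster with at least 100 UMIs, 1 was past 2-fold, *Csf1* in neutrophil-like cells, and 53 had a log2 ratio under 0.5 in size (median size 0.20). Over all genes and the same classes, 1.29% of pairs were past 2-fold, so the share of the members was near the background. In CCR2- macrophage-like cells 0 of 6 members were past 2-fold, with 26 of 10822 genes (0.24%). In monocyte-like cells 0 of 5 members were (0.352% of all genes), and in non-classical monocyte-like cells 0 of 5 (0.42%). In the *Spp1* *Gpnmb* cluster 0 of 6 were past 2-fold (0.519%), where *Csf1r* had a log2 ratio of -0.41 and *Csf1* of 0.52. The *Csf1* ratio there was 1.22, past 2-fold, in female cells (27 WT and 97 KO UMIs) and 0.13 in male cells. In the *Saa3* *Prg4* cluster, a small cluster of 59 WT and 50 KO cells, 0 of 5 were past 2-fold (1.42%). There *Csf2rb* was 126 CPM (114–140) in WT against 202 CPM (186–219) in KO, while *Csf1r* went the other way, as given above.

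**Figure D4:**
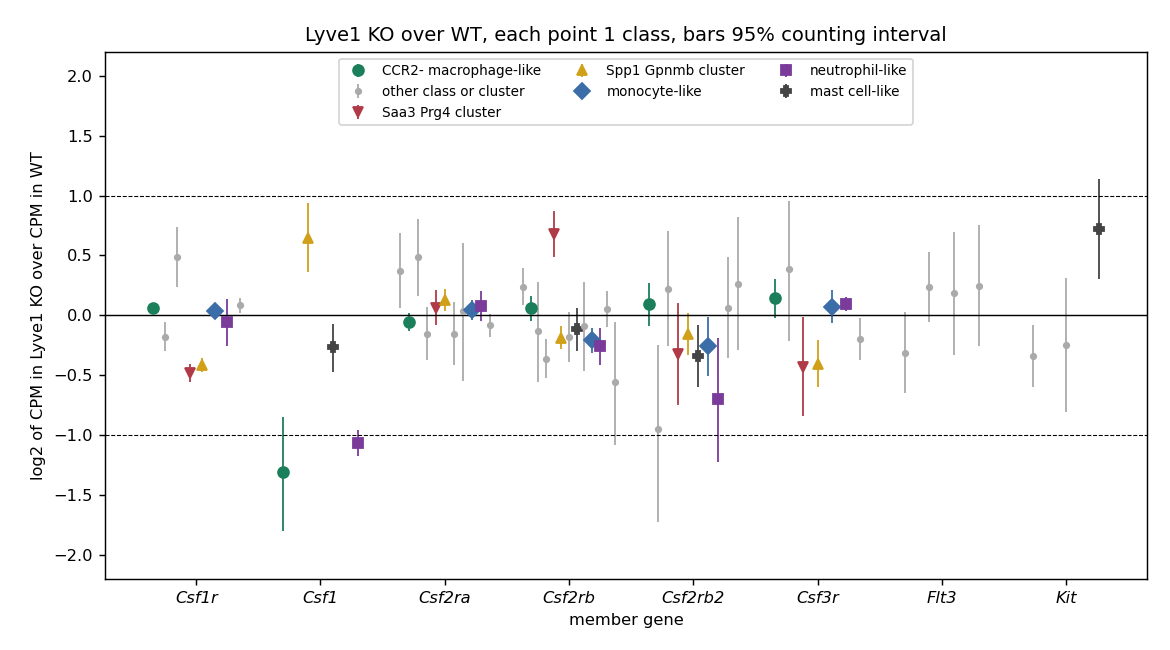
Log2 of the CPM in Lyve1 KO over the CPM in WT for each member (horizontal axis), 1 point for each class or cluster with at least 100 UMIs, with 95% counting intervals; the vertical scale has no CPM added, and dashed lines mark 2-fold. Most points lie between the dashed lines, and the points of Csf1 in neutrophil-like and in CCR2- macrophage-like cells lie below -1, the latter from 241 and 45 UMIs (log2 ratio -0.50 with 10 CPM added).

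The members were also compared between myeloid classes, where a gene counts only if it is past 2-fold with the same sign in both libraries. Comparing the *Spp1* *Gpnmb* cluster with CCR2- macrophage-like cells within each library, 3 of 6 members were, beside 6.98% of 9449 genes. They were *Csf2rb* (log2 ratio 1.73 in WT and 1.498 in KO), *Csf2rb2* (1.48 and 1.27) and *Csf1* (1.10 and 2.13), all higher in the *Spp1* *Gpnmb* cluster. *Csf1r* went the other way, by -0.61 and -1.08. The *Csf1* level of the *Spp1* *Gpnmb* cluster rests in part on single cells. Without the cell of most UMIs in each library, 103 of 157 UMIs were left in WT and 245 of 296 in KO. Whether *Csf1* stays past 2-fold in this comparison without these cells was not tested. Between monocyte-like and CCR2- macrophage-like cells 4 of 5 members were past 2-fold in both libraries, beside 14.5% of 9503 genes. *Csf1r* was lower in monocytes (-1.18 and -1.20), and *Csf2ra* (1.05 and 1.15), *Csf2rb* (1.42 and 1.17) and *Csf3r* (1.81 and 1.76) were higher. Between non-classical monocyte-like and monocyte-like cells 0 of 5 were past 2-fold, beside 6% of 7239 genes, and *Csf1r* was higher in the non-classical ones by 0.82 and 0.87. The classes were named from marker genes that did not include the members, but cells of a class come from the same library, so these differences are within 2 libraries and not over animals.

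Most UMIs of the other ligands of these receptors were in few classes, except those of *Flt3l*. *Csf2*, which encodes GM-CSF, and *Il5* are among the leading genes of the ILC2-like cluster, so their levels there describe it. *Csf2* was 2101 CPM (2010–2196) in WT against 1643 CPM (1575–1713) in KO ILC2-like cells, which held 94.0% and 91.0% of its UMIs. *Il5* was 1667 and 1587 CPM in the same cells. Of the ILC2-like cells, 30 of 47 in WT and 26 of 55 in KO held UMIs of both *Kit* and *Csf2*. *Kit* was found in 38 and 46 of these cells and *Csf2* in 34 and 29. In the *Saa3* *Prg4* cluster *Csf2* was past 2-fold, with 4 UMIs in WT and 138 in KO (log2 ratio 2.34), of which 111 were in 1 cell.

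*Csf3*, the G-CSF gene, was at its highest in the *Saa3* *Prg4* cluster, with 99.5 CPM (88.2–112) in WT against 132 CPM (119–146) in KO, and its receptor was at 40.9 and 30.4 CPM there. *Kitl* was 873 CPM (798–954) and 610 CPM (561–662) in the few endothelial-like cells, whose median depth differed between WT (18593 UMIs) and KO (3977 UMIs). CCR2- macrophage-like cells had 49.3 CPM (46.6–52.2) and 50.8 CPM (46.8–55.1) of *Kitl* and held 63.1% and 45.6% of its UMIs, and their *Ccl8* *Folr2* cluster had 89.8 and 99.6 CPM. *Flt3l* was highest in lymphoid classes, such as T cell-like cells with 63.7 and 72.5 CPM and NK cell-like cells with 72.1 and 77.2 CPM. *Il34*, the other ligand of CSF1R, had 7 UMIs in all WT and 36 in all KO cells, and *Il3* had 1 and 0. Sources outside the CD45+ sort are not part of these data. Of the alpha chains, *Il3ra* was highest in the mast cell-like cluster (104 and 143 CPM) and *Il5ra* in B cell-like cells (48.4 and 41.3 CPM).

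**Figure D5:**
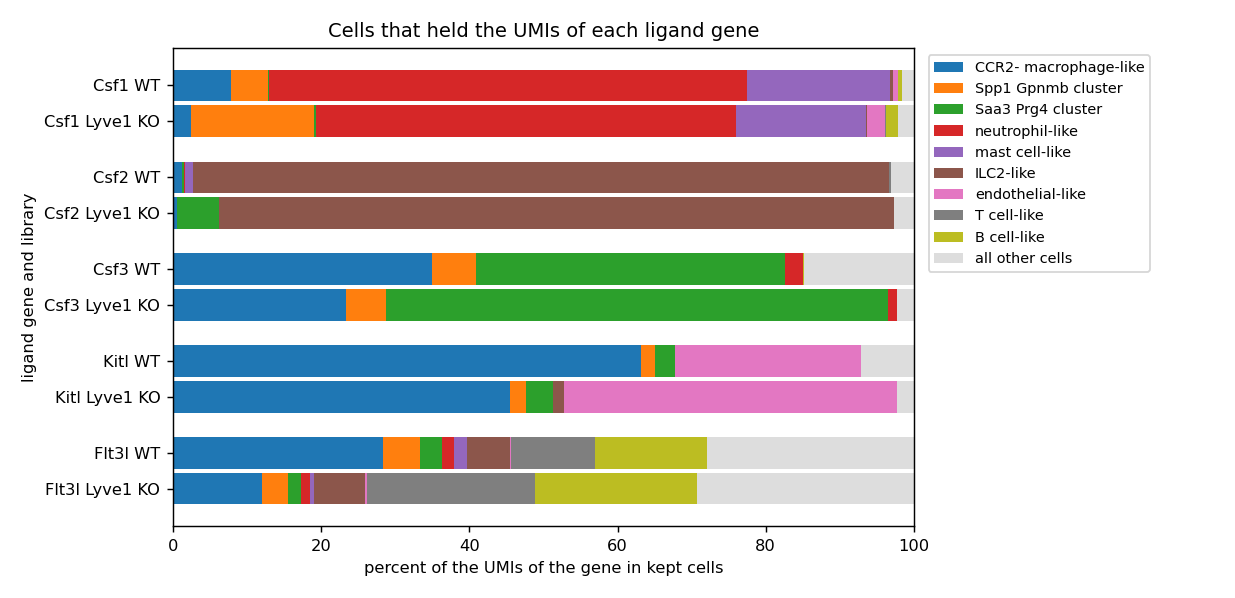
Share (percent, horizontal axis) of the UMIs of 5 ligand genes held by each class of kept cells, 1 bar for each gene and library; colours are classes and grey is all other cells. Csf1 came mainly from neutrophil-like cells and from the basophil side of the mast cell-like cluster, which is drawn undivided. Csf2 came mainly from ILC2-like cells and Csf3 from the Saa3 Prg4 cluster and CCR2- macrophage-like cells. Kitl came mainly from CCR2- macrophage-like and endothelial-like cells, and Flt3l from many classes.

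Downstream genes were compared as lists. Of 19 genes of receptor signalling (*Grb2*, *Jak2*, *Stat5a* and others), 16 to 18 had enough UMIs in each of 6 myeloid classes and clusters and in pooled dendritic cells, and 0 were past 2-fold in any of them. The median log2 ratio of this list was -0.01 in CCR2- macrophage-like cells (-0.05 over all genes) and -0.04 in neutrophil-like cells (-0.01 over all genes). Differences under 2-fold were present, such as *Jak2* in neutrophil-like cells, at 149 CPM in WT against 78.6 CPM in KO. *Stat5b* went the other way there, at 81.5 and 99.7 CPM. Of 9 transcription factors of myeloid identity (*Spi1*, *Cebpa*, *Irf8* and others) 0 were past 2-fold in any of these classes or the pooled dendritic cells. Over all genes 0.24% to 1.42% were past 2-fold in the 6 myeloid classes and clusters and 1.87% in the pooled dendritic cells. Both counts of 0 were near these shares. Of 8 feedback and target genes, 1 of 6 tested was past 2-fold in neutrophil-like cells (0.925% of all genes). This was *Bcl2a1b*, a survival gene with near-identical copies, with 612 CPM in WT against 282 CPM in KO (log2 ratio -1.09). In the pooled dendritic cell-like classes 2 of 8 were past 2-fold (1.87% of 4662 genes), *Socs1* (48.2 and 12.9 CPM) and *Socs2* (67.3 and 27.9 CPM), inhibitors of cytokine signalling. Migratory cells, which differ in number (39 WT and 5 KO cells) and median depth (2975 and 34666 UMIs), are part of this pool, and their part in these ratios was not tested.

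The genes whose levels followed each member most closely over 15 classes and 2 libraries (30 points, 10848 genes with at least 500 UMIs) were sought by Pearson's r of log2(CPM + 10). The points of 1 class share cell type and the points of 1 library share the same pooled hearts, so r is a description. For *Csf1r* they were *Clec4a1* (r = 0.946), *Clec4n* and *Lyz2*. For *Csf1* they were *Hdc* (0.932), the histamine-forming enzyme of basophils, *Acod1* and *Aqp9*. For *Csf3r* they were *Sgms2* (0.971), *Vnn3* and *Trem1*, and for *Csf2ra* *2010013B24Rik* (0.952) and *Tgfbi*. *Csf2rb* had *Ncf1* (0.912), *Csf2rb2* (0.896) and *Btk*, and *Csf2rb2* had *Csf2rb*, *L1cam* (0.815) and *Ccl4*. *Flt3* had *Spint1* (0.905), *Syngr2* and *Pmvk*, and *Kit* had *Il1rl1* (0.805), *Il13* and *Creb3l1*.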

How the data were processed

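The authors deposited raw counts of unique molecular identifiers (UMIs) per gene and cell barcode, made with Cell Ranger 8.0.1 per the file headers on mm10, without normalisation. Both tables hold all called barcodes. As in the study's methods, barcodes were left out where fewer than 500 genes or 250 UMIs were detected or where mitochondrial UMIs exceeded 30%. Scrublet (scanpy 1.11.5) called only 4 WT and 7 KO doublets by its own threshold, so the 98 WT and 73 KO barcodes of highest score (0.4% per 1000 barcodes) were left out. Cells were integrated and clustered in 2 steps with Seurat 5.3.0 (R 4.3.3; 2000 variable genes, 30 dimensions, k of 20, resolution 0.8), with cell cycle scores regressed out and 60 genes kept out of the features, among them the 8 members. A cluster was named where at least 3 markers of a cell type were found in at least 25% of its cells. No cluster took the name CCR2+ macrophage, and macrophage clusters of at least 50 cells without a name go by their leading genes.

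Levels (CPM) are the summed UMIs of a gene over the summed UMIs of the class. Log2 ratios have 10 CPM added, and genes with at least 100 UMIs over both libraries count as tested. The tests of a gene, class or list are sizes only, since each genotype is 1 library. Shares of cells come from cells thinned to 3600 UMIs, with shallower cells left out. Intervals are 95% exact Poisson or Clopper-Pearson, and cover counting error only. Counting and intervals were checked on simulated data. Python 3.11.15, numpy 2.4.6, scipy 1.17.1 and pandas 2.3.3 were used. Named are all members, the other ligands and alpha chains, genes of the other lists past 2-fold, the 3 genes of highest r for each member (1 of these is not reported here), and *Lyve1*. The granule genes of the mast cell-like cluster, the leading genes of clusters and the values of *Jak2* and *Stat5b* were picked after they were seen. The members and gene lists were chosen with earlier results of these data known.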

Additional observations from a re-analysis of the deposited data

Results flagged for a closer look

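In neutrophil-like cells the log2 ratio of *Csf1* in KO over WT was -1.59 in cells with Y-linked UMIs and 0.38 in cells with *Xist* UMIs, opposite directions in cells of different hearts of the pools. *Csf1r* showed opposite directions in the same cells, with -0.42 (153 CPM in WT and 111 CPM in KO) in cells with Y-linked UMIs and 0.65 (116 and 187 CPM) in cells with *Xist* UMIs. In the *Saa3* *Prg4* cluster the *Csf1r* ratio was -0.72 in cells with Y-linked UMIs (40 WT and 39 KO cells) and 0.41 in cells with *Xist* UMIs (16 WT and 8 KO cells). For *Csf1*, neutrophil-like cells with UMIs of neither kind had the direction of the cells with Y-linked UMIs. The differences between these sets of cells were not tested, since each is 1 set of pooled cells.

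Barcodes with fewer than 500 genes, left out of all classes, held UMIs of the members. In the 827 such WT barcodes *Csf1r* was at 378 CPM (337–423) and in the 947 KO ones at 380 CPM (335–428). *Csf3r* was at 45.6 CPM (32.1–62.9) in WT against 145 CPM (118–176) in KO. In the same barcodes *S100a8*, a leading gene of neutrophil-like and of monocyte-like cells, was at 348 and 2284 CPM. RNA of *Csf3r* and *S100a8* was thus more abundant among the KO barcodes that the limit on genes removed. Which cells it came from, and its part in the neutrophil-like values, was not tested.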

How the results depend on the processing

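No paired analysis was possible because each genotype is 1 library. Of 73 alternative values of the log2 ratio of the members in their highest class of at least 20 cells per library, 60 stayed within the counting interval of the reported value and 5 changed sign, 3 of them in cells with *Xist* UMIs. The 1 sign change of a ratio past 2-fold was *Csf1* in neutrophil-like cells, -1.05 as reported, which was 0.38 in cells with *Xist* UMIs, -1.59 in cells with Y-linked UMIs and -0.90 with each cell weighted equally, and between -1.03 and -1.12 under the others. In cells with Y-linked UMIs *Csf2rb* in the *Cd209a* cluster was -0.59 (-0.36 as reported), *Csf2rb2* in the *Spp1* cluster 0.039 (-0.14) and *Csf3r* in neutrophil-like cells 0.014 (0.09). In cells with *Xist* UMIs *Csf1r* in CCR2- macrophage-like cells was 0.14 (0.06), *Csf2rb* 0.14, *Csf2rb2* -0.41 and *Flt3* in cDC1-like cells -0.37 (0.22). With cells weighted equally *Csf1r* was -0.044, *Csf3r* 0.21 and *Csf2ra* in non-classical monocyte-like cells -0.24 (-0.08). With 1 CPM added, *Csf1* in CCR2- macrophage-like cells was -1.12 instead of -0.50. Without thinning, shares of cells with a UMI were 58.7% in WT and 48.8% in KO for *Csf1* in neutrophil-like cells, 95.8% and 93.6% for *Csf2ra*, 94.4% and 91.2% for *Csf2rb*, 66.0% and 77.9% for *Csf2rb2*, 100% and 95.7% for *Flt3* and 80.9% and 83.6% for *Kit* in ILC2-like cells. The thinned shares of *Csf2rb2* had the opposite order, 30.4% and 26.6%. With a minimum of 20 UMIs or none, 70 genes were past 2-fold in neutrophil-like cells (44 as reported). The cause of these changes was not tested. Of the 257 other values of log2 ratios 31 left the counting interval and 19 changed sign, 9 of them in cells with *Xist* UMIs, where *Csf1r* in the *Saa3* cluster was 0.41 (-0.48 as reported) and *Csf3r* there 1.46 (-0.33, from 15 WT and 25 KO UMIs in these cells). Among classes of at least 20 cells in each library, the class of highest level stayed the same for 8 of 8 members under most settings. It did so for 6 without regression of the cell cycle, 7 in cells with *Xist* UMIs and 7 with cells weighted equally. Smaller classes, such as the mast cell-like cluster, were not part of this comparison.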
